A study of Mus musculus with 34 samples.

Results

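CpG islands that were methylated in every adult tissue of the mouse were examined across embryos, embryonic stem (ES) cells, teratomas and pancreatic cell lines. Methylation was measured with mDIP, in which DNA bound by an antibody against 5-methylcytidine is compared with input DNA on an Agilent CpG island array. An island is here a run of at least 3 probes with gaps of at most 500 bases, and its island methylation score (IMS) is the mean over its probes of the log ratio of bound to input DNA, set in units of the standard deviation (Z units) around the mean of all probes of that array. Islands were kept when the IMS exceeded 0.75 on all 16 arrays of adult tissue and when the mean of the 5 arrays of differentiated ES cells lay less than 0.4 below the adult mean, and chromosomes X and Y were dropped. In all, 444 of 13614 islands scored on every array met the rule, or 3.35% of the 13238 autosomal islands. They hold 2025 probes, and 374 of them carry a gene name, for 346 different genes. Of the 980 autosomal islands above 0.75 on all adult arrays they make up 45.3%, and the other 536 were lower in differentiated ES cells. The adult and differentiated ES values therefore chose the members and are given as a description, while embryos, undifferentiated ES cells, teratomas and islet cells took no part in the choice.

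In all, 34 arrays were hybridised, each with DNA of a single source. The adult samples were pancreas, colon, liver, spleen, lung, kidney, brain and muscle of mice aged 3 months, with 2 arrays a tissue, of males, of females or of both. Embryos were labelled 8.5, 9.5, 10.5, 11.5 and 12.5 days, with 1 array each, the last from a female and the others from males. Undifferentiated ES cells were the lines EB5, J1 and TT2 with 1 array each, and the differentiated cells were embryoid bodies from TT2, ES cells treated with retinoic acid, 2 arrays of endoderm and 1 of mesoderm from EB5. The endoderm and mesoderm came from a reporter derivative of EB5, were induced with Activin A and were sorted, so that they represent 1 targeted line. Teratomas, with 2 arrays, are tumours that ES cells form under the skin of immunodeficient NOD-SCID mice, and may hold host cells. The labels name J1 as their source and the methods name other lines, and for the retinoic acid sample the labels name TT2 and the methods J1. Ex vivo β cells from pancreatic tissue, the β cell line Min6 and the α cell line aTC had 1 array each. The paper describes the β cells as sorted with anti-insulin antibodies from islets of transgenic Pdx1-GFP mice of a range of ages. The methods give C57Bl/6 as the source of all mouse DNA, and name no separate strain for the ES or islet lines. No source says whether arrays of a group came from separate animals or cultures, so p-values measure the spread between arrays, which may be partly technical. In the embryo, undifferentiated ES and adult groups this spread also holds differences of stage, line or tissue.

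DNA methylation is laid down over most of the genome around implantation, while the majority of CpG islands, above all those at active promoters, stay unmethylated and remain so in every cell type. A minority of islands, many of them within gene bodies or at promoters of genes used only in germ cells, become methylated and keep the mark through the maintenance methyltransferase Dnmt1. Methylation of a promoter island goes with stable silencing of its gene, whereas methylation within a gene body is compatible with transcription.

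The few members at a transcription start are shown first, since most members lay far from one. Only 25 of the 383 members with a listed start had their median probe within 1000 bases of it. For 6 of these genes the RefSeq promoter is printed, from 250 bases before to 50 bases after the start in build GRCm38.p6, in lower case with every CG, the dinucleotide that carries the mark, in capitals. The genes were picked after their values were seen. Dazl encodes a germ cell RNA-binding protein and lies on the minus strand at chr17:50293571-50293870. Hormad1, a protein of the meiotic chromosome axis, lies on the plus strand at chr3:95559427-95559726. Dmc1, the meiotic recombinase, lies on the minus strand at chr15:79605060-79605359. Spesp1, a protein of the sperm head, lies on the minus strand at chr9:62282130-62282429. Lep, the gene of the fat hormone leptin, lies on the plus strand at chr6:29059971-29060270. Snai1, a zinc finger repressor of E-cadherin, lies on the plus strand at chr2:167537945-167538244 and is shown because its island was low in embryos.
Dazl: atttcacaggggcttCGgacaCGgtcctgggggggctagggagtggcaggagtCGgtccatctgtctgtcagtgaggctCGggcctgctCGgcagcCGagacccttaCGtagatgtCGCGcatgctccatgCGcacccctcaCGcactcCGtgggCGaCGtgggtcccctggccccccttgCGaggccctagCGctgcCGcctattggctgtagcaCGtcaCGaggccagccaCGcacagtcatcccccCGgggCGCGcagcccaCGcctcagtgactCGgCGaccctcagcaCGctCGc
Hormad1: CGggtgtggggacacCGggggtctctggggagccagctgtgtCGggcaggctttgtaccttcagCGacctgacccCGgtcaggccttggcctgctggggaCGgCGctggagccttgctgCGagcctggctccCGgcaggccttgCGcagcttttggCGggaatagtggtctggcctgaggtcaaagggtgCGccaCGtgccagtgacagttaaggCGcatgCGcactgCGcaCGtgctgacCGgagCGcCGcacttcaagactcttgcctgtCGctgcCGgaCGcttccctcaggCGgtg
Dmc1: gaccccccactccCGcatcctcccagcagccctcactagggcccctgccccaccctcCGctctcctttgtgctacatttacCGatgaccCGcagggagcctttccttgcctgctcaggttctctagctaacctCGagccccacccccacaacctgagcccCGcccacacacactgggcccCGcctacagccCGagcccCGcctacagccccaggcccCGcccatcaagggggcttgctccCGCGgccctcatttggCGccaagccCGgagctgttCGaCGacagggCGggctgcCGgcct
Spesp1: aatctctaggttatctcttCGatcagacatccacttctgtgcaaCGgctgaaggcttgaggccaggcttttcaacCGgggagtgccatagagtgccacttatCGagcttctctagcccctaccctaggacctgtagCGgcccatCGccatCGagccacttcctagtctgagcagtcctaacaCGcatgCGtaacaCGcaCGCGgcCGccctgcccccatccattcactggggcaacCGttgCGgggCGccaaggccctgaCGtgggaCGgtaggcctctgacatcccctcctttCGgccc
Lep: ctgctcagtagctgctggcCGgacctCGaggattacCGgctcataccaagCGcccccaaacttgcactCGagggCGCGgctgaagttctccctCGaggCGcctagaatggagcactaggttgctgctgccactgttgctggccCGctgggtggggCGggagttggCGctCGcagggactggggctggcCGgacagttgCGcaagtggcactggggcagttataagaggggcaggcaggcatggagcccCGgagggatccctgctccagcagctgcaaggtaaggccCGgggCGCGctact
Snai1: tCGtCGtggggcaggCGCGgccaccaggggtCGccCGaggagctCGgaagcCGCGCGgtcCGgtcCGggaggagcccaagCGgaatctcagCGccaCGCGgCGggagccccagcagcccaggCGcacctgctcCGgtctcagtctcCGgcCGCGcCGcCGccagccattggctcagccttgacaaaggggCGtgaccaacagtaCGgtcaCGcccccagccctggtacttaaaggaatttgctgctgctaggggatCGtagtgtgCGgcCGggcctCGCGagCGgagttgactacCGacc

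Snai1 holds 34 CG dinucleotides in 300 bases, Dazl 28, Hormad1 24, Spesp1 19, Lep 19 and Dmc1 18, against a median of 7 over the 32851 windows of the RefSeq table. Over the 21 windows found for 18 of the genes with a member near the start, the median was 19, and over the windows matched to promoter islands of the array it was 24, as it was for those below 0 on all adult arrays. A few short motifs, each holding a counted CG, were searched on both strands. The E-box CACGTG occurred in Hormad1 alone among the 6. It occurred in 9.52% of the 21 windows, in 9.59% of the windows matched to promoter islands and in 7.15% of all windows. The 9.52% stands for 2 windows, the overlapping windows of the 2 starts of Hormad1, and so for 1 gene. The motif TCCCGC occurred in Hormad1, Dmc1, Lep and Snai1, in 52.4% of the 21 windows, in 40.2% of the windows matched to promoter islands of the array and in 20% of all windows. The motif TGACGTCA occurred in 0 of the 6, in 9.52% of the 21 windows, in 2.97% of the windows matched to promoter islands and in 1.79% of all windows. These matches are descriptions of letters in a window.

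Members sat mostly inside genes and away from promoters, a property that the rule did not use. By the annotation of the array, 345 members (77.7%) lay inside a gene, against 62.5% of all autosomal islands. Only 15 (3.38%) were called promoter islands, against 18.1%, and 0 lay at a divergent promoter, against 3.07%. A further 13 lay downstream of a gene and 71 (16%) had no annotated place, against 13.1% of all. The median probe lay 13688.5 bases downstream of the listed start, with quartiles of 4205.25 and 45743.8, whereas the median over all islands was 172 bases. Within 1000 bases of a start lay 6.53% of members, 73.3% of all islands and 87.6% of islands below 0 on all adult arrays. The 536 adult-methylated islands lower in differentiated ES cells lay in similar places, so this is not particular to the members. Of those, 74.6% lay inside a gene, 5.97% were promoter islands and 11.1% lay within 1000 bases of a start. Members were also short. Their median span was 401.5 bases with 4 probes, against 683 bases with 6 probes for all islands. For the 536 it was 486.5 bases with 5 probes. Chromosome 8 carried the most, with 48 members or 6.11% of its islands, and chromosome 13 the lowest share, 1.2%.

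**Figure D1:**
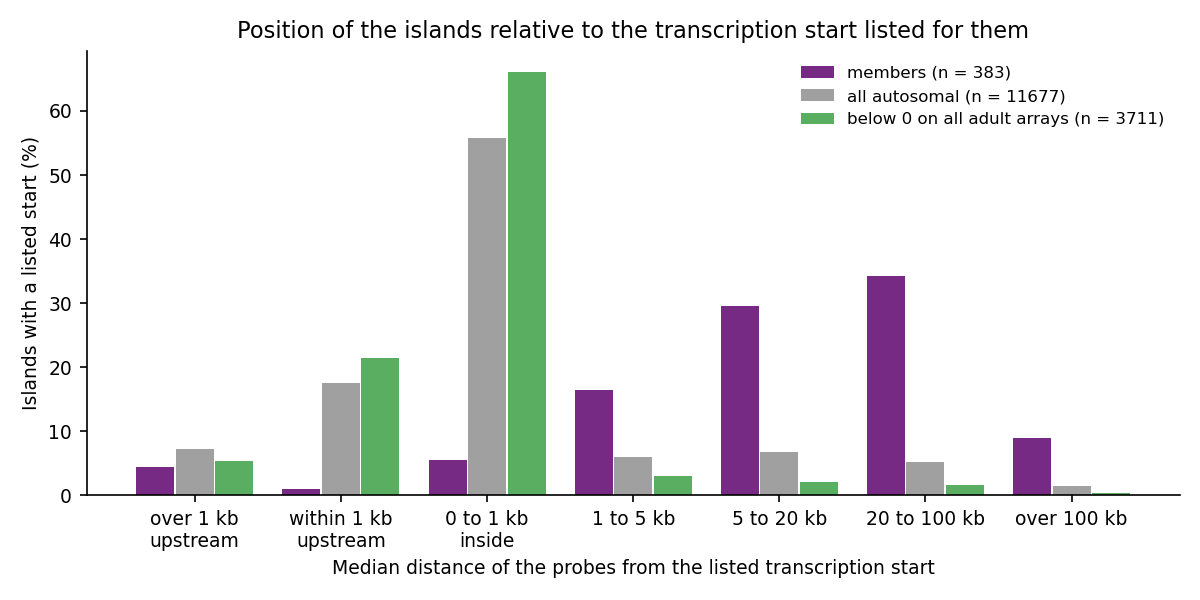
Share of islands (%) by the median distance of their probes from the listed transcription start, for members, all autosomal islands and islands below 0 on all adult arrays. Only 6.53% of members lie within 1000 bases of a start, against 73.3% of all islands.

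The members with the most probes lay inside genes. Npas3, a bHLH-PAS transcription factor, had a member of 14 probes at chr12:55168637-55170247 in build mm9, with an adult IMS of 1.37 ± 0.39 (SD, n = 16) and 1.30 ± 0.12 in embryos (n = 5). Spen, a cofactor of gene silencing by Xist, had a member of 13 probes at chr4:141033301-141035110, with 2.82 ± 0.48 in adult tissue and 3.20 ± 0.23 in embryos. Elfn2, a transmembrane protein with leucine-rich repeats, had 13 probes at chr15:78502303-78503815, with 2.61 ± 0.36 and 2.79 ± 0.29. All 3 islands were above 0.75 on every adult and embryo array. In 25 genes there was more than 1 member, up to 3 in Atp2b2, Grm4 and Apc2, so that members of a gene share their surroundings.

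Several arrays stood apart, and they bear on every result below. The array labelled J1 correlated more closely with adult tissue (r = 0.868 to 0.965 across islands, highest with pancreas replicate 2) than with EB5 (0.793) or TT2 (0.799), whereas EB5 and TT2 correlated at 0.881. These correlations are across islands, which are not independent. In the processed table that the authors deposited, the J1 column correlated at only 0.113 with the scanner values of the same array, while the other columns correlated at 0.894 to 0.991 with theirs. Results for undifferentiated ES cells are therefore given with and without J1. The standard deviation of the log10 ratios, by which every score is divided, ranged from 0.25 to 0.561. Of the members' probes, 52.7% to 100% had an input signal well above background on an array, and 84.2% to 99.9% a bound signal. No member had all of its probes below that level throughout a group, but 256 members had at least 1 probe whose input was not well above background on either teratoma array. The number of arrays limits the precision.

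Over the 444 members the mean IMS was 2.26 ± 0.17 on the adult arrays (SD, n = 16; 1.92 in lung replicate 2 to 2.45 in pancreas replicate 2) and 2.11 ± 0.28 on the differentiated ES arrays (n = 5; 1.86 to 2.56). These are the values that chose the members. The mean over islands below 0 on all adult arrays was -0.48 on the adult arrays. The means on arrays that took no part in the choice follow. The embryos had means of 2.15, 2.35, 2.55, 2.42 and 2.46 from 8.5 to 12.5 days. EB5 had 2.23, TT2 2.16 and J1 2.53, the teratomas 2.36 and 2.49, and ex vivo β cells 2.24. Min6 and aTC were lower, with 1.60 and 1.54.

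**Figure D2:**
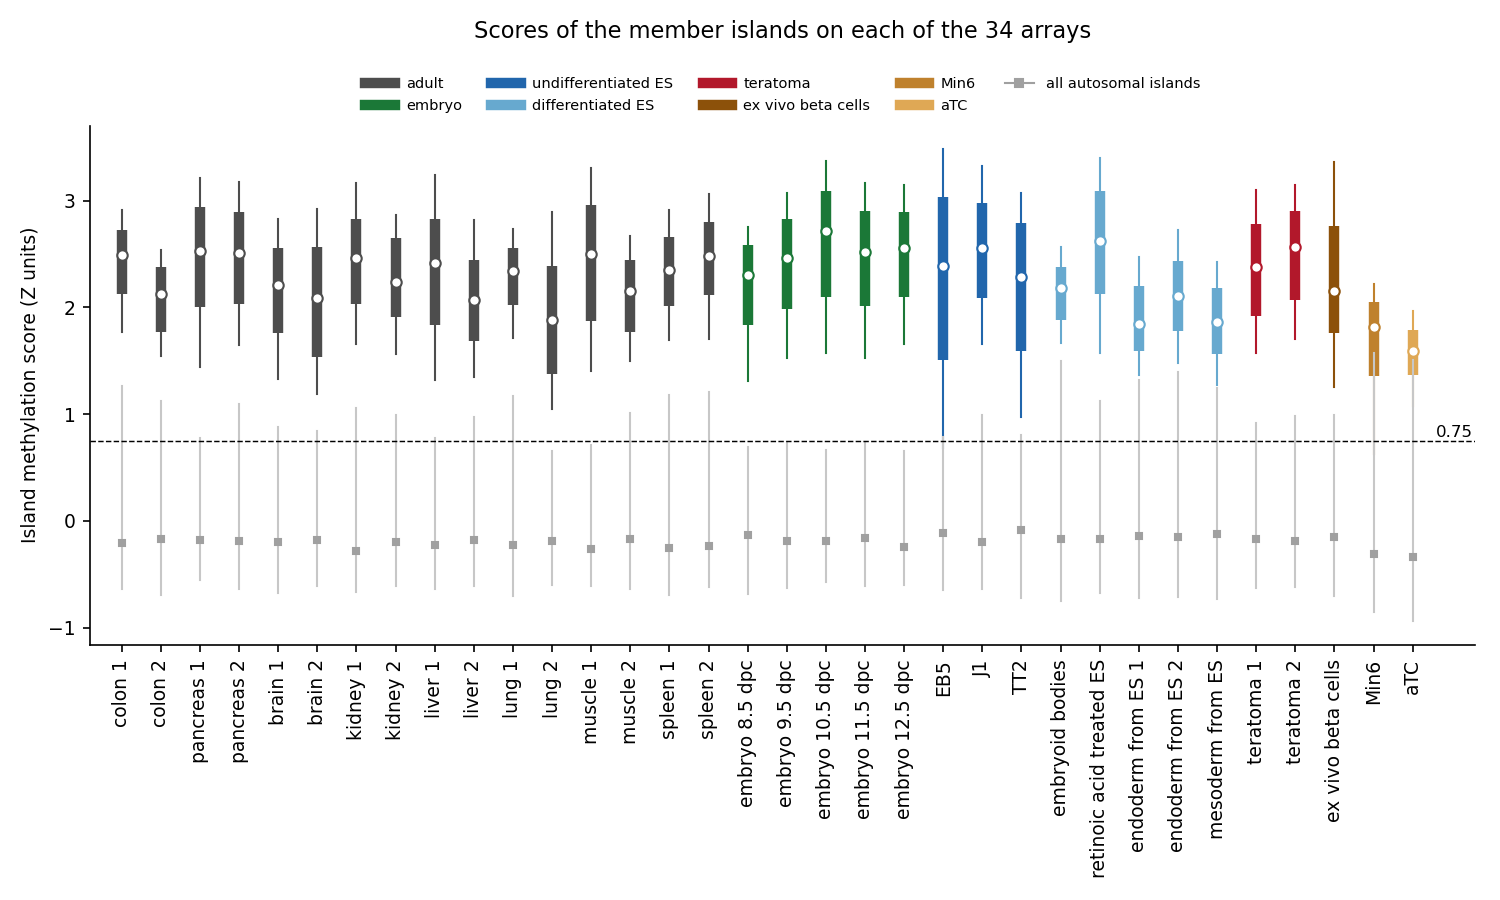
IMS in Z units of the 444 members on each of the 34 arrays: the point is the median, the thick bar the quartiles (25 to 75 percentiles) and the thin line the 10 to 90 percentiles. Grey squares and lines give the median and the 10 to 90 percentiles of all autosomal islands, and the dashed line marks 0.75. Members lie above the bulk of islands on every array, with long lower tails on EB5 and TT2 and low medians on Min6 and aTC.

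The choice itself was tried on arrays left out of it. When 15 adult arrays and the differentiated ES cells chose the islands, 98.9% ± 2.0 (SD, n = 16 arrays) of the 417 to 468 chosen islands were above 0.75 on the adult array left out, against 9.5% to 12.4% of all autosomal islands on that array. The share was 92% in lung replicate 2 and at least 97% in each of the other arrays. The other array of the same tissue was always among the 15, so the array left out was not fully apart from the choice. The thresholds cut a continuous range. Snapc2 (lowest adult IMS 0.753) and Kcnk3 (0.762) lay just inside the adult limit, and Tacc2 (0.749) and Pnmt (0.748) just outside. At the other limit, differentiated ES cells lay at -0.39960 from the adult mean for the gene BC022651 and -0.39927 for Kctd19, and at -0.402 for Fam110a and -0.404 for Gdf1, which were left out. The number of members depended on the processing, since 32 islands met the rule after another background correction and 149 when probes with dim input were left out.

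Adult tissues differed in how strongly single members were methylated, and replicates did too. The median range of the 8 tissue means was 0.75, and the median difference between the replicate arrays of a tissue was 0.41. The range exceeded 1 in 98 members. Pancreas was the highest tissue in 218 members, brain the lowest in 140 and lung in 127. The mean over all members was also highest in pancreas, 2.44 and 2.45, with 2.15 and 2.07 in brain. Lung had 2.28 and 1.92, and on lung replicate 2 only 52.7% of the members' probes had input well above background. The part of these array levels in the ranks was not tested. Nrtn, the neurotrophic factor neurturin, had the widest range. Its IMS was 3.72 and 3.47 in pancreas, 3.39 and 2.91 in colon, 1.62 and 1.41 in brain, and 0.82 and 1.97 in liver. The liver replicates thus differed by as much as many tissues did. Ppm1h, a protein phosphatase, had 2.89 and 2.77 in pancreas, 0.91 and 0.81 in lung, and 0.80 and 1.21 in muscle, but 1.13 and 2.02 in liver and 1.76 and 2.57 in spleen. Proser2 had 3.41 and 3.16 in pancreas but 1.14 and 3.01 in liver and 2.56 and 1.14 in brain. Since these arrays chose the members, no test was made.

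Nearly all members were methylated in embryos as well. On single embryo arrays 426 to 436 of the 444 members were above 0.75, and 423 (95.3%) were above it on all 5, against 8.57% of all autosomal islands. Among the 536 adult-methylated islands that were lower in differentiated ES cells the share was 93.1%. An average over DNA fragments cannot tell fewer methylated cells from fewer methylated CpGs in each cell. The highest members in embryos were strongly methylated at every stage. Snrk, an AMPK-related kinase, had 3.04, 3.64, 4.03, 3.99 and 3.59 from 8.5 to 12.5 days. Caskin2 had 3.06, 3.47, 4.01, 3.77 and 3.69, and Zbtb7a, a transcriptional repressor, 3.08, 3.39, 3.84, 3.75 and 3.47. Means in embryos were 3.43 for Map3k4 and 3.35 for Dyrk3, both kinases, and 3.34 for Sec1, a fucosyltransferase gene. The lowest value of these 6 on any embryo array was 2.78, for Sec1.

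A set of 21 members was not above 0.75 on all embryo arrays. In 7 of them no embryo array was above 0.75: Exoc3l4, Nfatc4, Srebf2, Ltbp3, Kcnk4, Snai1 and Kcnk3. Kcnk4, the potassium channel TRAAK, lies inside its gene at chr19:7000365-7000855 and had 0.0057, -0.069, -0.058, 0.074 and 0.094 in embryos, against 0.76 to 2.58 on the adult arrays. Nfatc4, a calcineurin-dependent transcription factor (chr14:56445553-56445812), had 0.34, 0.10, 0.16, 0.13 and 0.18, against 1.40 to 2.75. Exoc3l4 (chr12:112661620-112662254) had 0.061, -0.31, -0.39, -0.28 and 0.18, against 0.99 to 2.94. The embryo and adult arrays cannot overlap in any of the 7, since the rule put every adult array above 0.75.

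The genes of the next paragraphs, Srebf2 to Pcdhga11 apart from Insl3, were chosen after their values were seen. Srebf2 is the transcription factor of cholesterol synthesis, and its member, downstream of the gene, had embryo values of 0.66, 0.075, 0.031, 0.57 and 0.71. Ltbp3, which binds latent TGF-β, had 0.39, 0.17, 0.11, 0.43 and 0.32 at a member of 5 probes, while its other member, of 10 probes, had 1.81 to 2.06. The 2 islands of this gene thus differed in embryos although both were methylated on every adult array. Snai1 had 0.32, 0.22, 0.28, 0.23 and 0.43 across the 11 probes that cover its start, where adult arrays ranged from 0.90 to 1.89. Kcnk3, a background potassium channel, had 0.37 to 0.67 against 0.76 to 2.23.

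Insl3 and Cavin1 were low at 8.5 days and high at 12.5 days. Insl3, the hormone of testicular Leydig cells, had -1.06, -0.52, -0.25, 0.67 and 1.55 from 8.5 to 12.5 days, at a promoter island whose probes lie -3387 to -3120 bases from the listed start. Cavin1, a coat protein of caveolae, had 0.081, 0.39, 0.48, 0.90 and 1.46. Each later embryo had a higher value than the one before at both genes, with 1 array a stage and no test of the order. Clustered protocadherins of the gamma group, which give neurons their surface identity, had 3 members. The larger Pcdhga12 island had 0.56, 0.49, 0.83, 1.22 and 1.25, its smaller island 0.58 to 1.47, and Pcdhga11 0.61 to 1.52, against adult means of 2.15, 2.34 and 1.99. Of the 21 members, 20 were above 0.75 on both teratoma arrays, and the exception was Kcnk3 with 0.69 and 0.88.

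**Figure D3:**
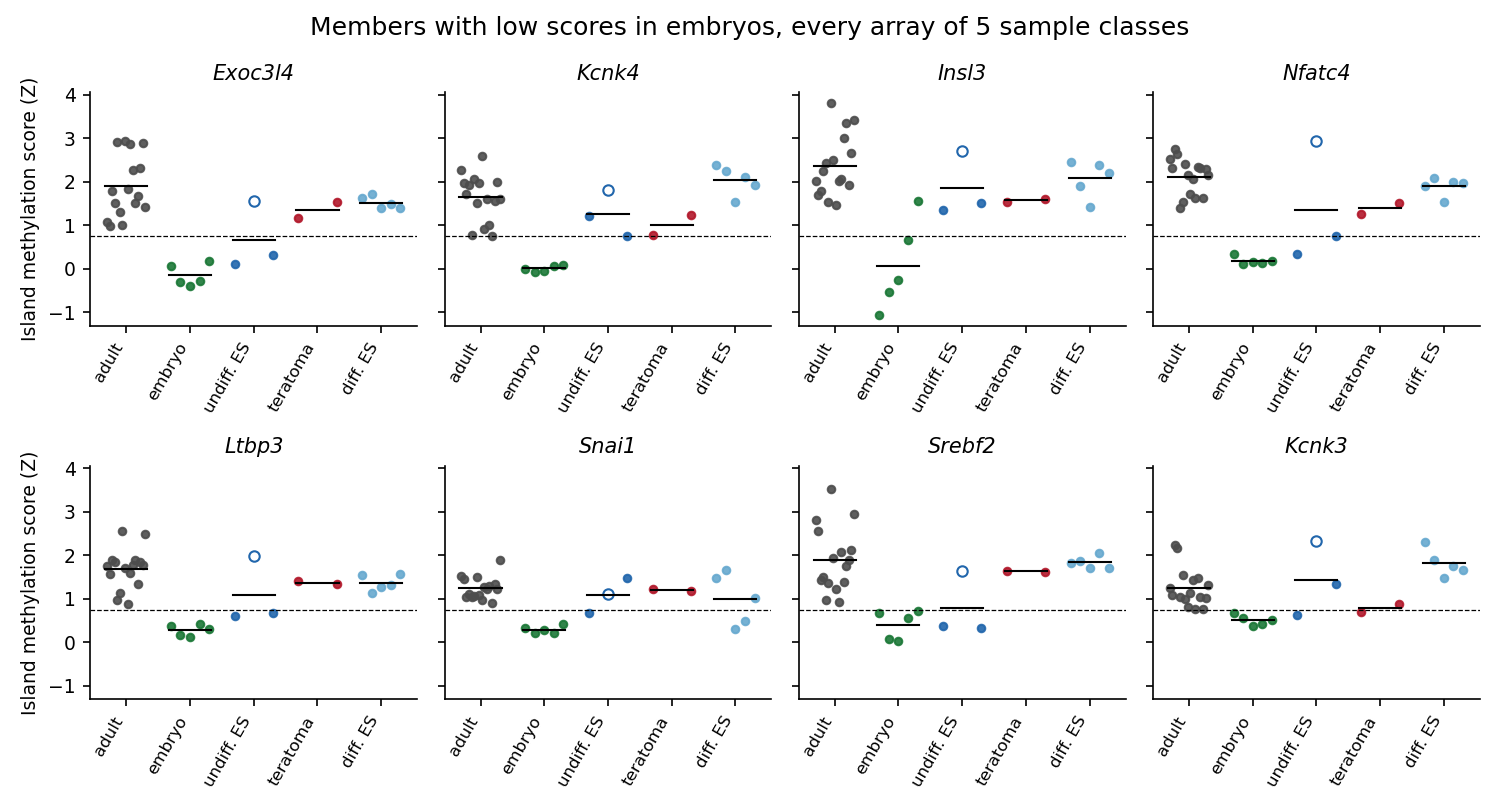
IMS of members with low embryo scores on every array of 5 sample classes, with the mean as a black line, 0.75 as a dashed line and the array labelled J1 as an open circle. Kcnk4 and Nfatc4 sit near 0 on all 5 embryo arrays and above 0.75 on all adult arrays, and Insl3 spreads from -1.06 to 1.55 over the embryos.

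By the annotation of the array, 3 of 15 promoter members (20%) were not above 0.75 on all embryo arrays, against 17 of 345 (4.93%) inside genes, 1 of 13 downstream and 0 of 71 without annotation. The difference of these shares was not tested. Among the 25 members near a start, 3 were not above 0.75 on all embryo arrays, namely Snai1, Cdx1, a homeobox factor of the intestine, and Nlgn2, an adhesion protein of inhibitory synapses. The other 22 include Dazl, with 2.65, 3.18, 3.66, 3.29 and 3.31 in embryos, 3.86, 3.69 and 3.08 in EB5, J1 and TT2, and 2.64 to 3.92 in adult tissue. The levels of Dazl overlapped between all these groups. Hormad1 had 2.56 to 3.52 in embryos, Lep 2.48 to 3.02 and Spesp1 2.12 to 2.79. Dmc1 was lower, with 0.90, 1.00, 1.21, 1.28 and 1.35 in embryos, and with 0.47 in EB5, 0.14 in TT2 and 1.88 in J1.

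For a test against adult tissue the adult arrays had to be divided, since those that chose an island cannot also test it. Islands chosen by the same rule with replicate 1 of each tissue numbered 391, of which 311 are members, and embryos were compared with replicate 2 (n = 8) in a limma fit to all 13614 islands, adjusted over all of them. Of the 391, 36 were higher in embryos (background 3.76% of all islands) and 28 lower (2.87%), 64 in all (6.63%). On the chosen islands the median difference was 0.26, and over all islands 0.020. Nfatc4 was lower by a difference of -1.92 (SE 0.16, limma adjusted p = 6.3e-06), Kcnk4 by -1.62 (SE 0.18, adjusted p = 0.00011), Insl3 by -2.21 (SE 0.40, adjusted p = 0.0040) and Snai1 by -1.02 (SE 0.12, adjusted p = 0.00017). Caskin2 was higher by 0.71 (SE 0.19, limma adjusted p = 0.039), while Dyrk3 (0.48, adjusted p = 0.059) and Zbtb7a (0.23, adjusted p = 0.51) did not pass. Exoc3l4, Snrk, Map3k4 and Sec1 were not among the islands chosen with replicate 1. All genes named here are members, so the arrays of replicate 2 also had a part in choosing them. Most were also named for a high or low mean on these same embryo arrays. Their p-values are therefore a description and no independent test.

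With the replicates exchanged, 34 of 550 chosen islands were higher (8.48% of all islands) and 39 lower (5.51%), against 14.0% in all. The median difference was then 0.062 on the chosen islands and 0.045 over all islands. All replicate 1 arrays had 97651 probes and all embryo arrays 88737, so array version and group cannot be told apart in the exchanged comparison. Of replicate 2, only the colon and pancreas arrays had 97651 probes. Of the 297 islands chosen both ways, 15 were lower in the first comparison and all 15 were lower in the exchanged one too. Of 33 that were higher, 13 were higher both ways. Islands chosen both ways were above 0.75 on every adult array, so the tested arrays also chose them. These counts are therefore a description and no independent check. On log2 ratios centred on the array median, without division by the standard deviation, 4 of the 391 were higher and 15 lower (3.13% and 1.92% of all islands, 5.05% in all). Both comparisons used the same 5 embryo arrays. Without the 10.5 day array 36 of the 391 passed, and 40 and 42 without the 9.5 and the 11.5 day array. With the slide as a random block 29 passed. For the fits without an embryo array and with the slide, the shares over all islands are not given. Those counts show only how the number passing moved.

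Undifferentiated ES cells were also methylated at most members, with a longer lower tail. EB5 had 394, TT2 413 and J1 444 members above 0.75. On all 3 arrays 387 (87.2%) were above it, against 7.37% of all autosomal islands and 75.6% of the 536 islands lower in differentiated ES cells. Since J1 was above 0.75 at every member, the same 387 were above it on EB5 and TT2 alone. With the deposited table of processed values, where 153 islands met the rule, the share was 27.5% with its J1 column and 82.4% without it. EB5 and TT2 were both below 0.75 at 24 members, and at 3 of these (Exoc3l4, Srebf2 and a member of Ltbp3) no embryo array was above it. The differentiated cells that chose the members derive from EB5 and TT2, so these lines are not fully apart from the choice.

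Against embryos, members that passed went both ways in Z units, but nearly all were lower in undifferentiated ES cells on centred log2 ratios. In a limma fit of the 3 undifferentiated ES, 5 embryo and 2 teratoma arrays to all islands, 16 of the 444 members were higher in ES cells (1.59% of all islands) and 21 lower (1.45%), 37 in all (3.05%). Without J1, 29 were higher (5.31%) and 99 lower (5.71%), 128 in all (11.0%). The median difference over members was -0.023 with J1 and -0.052 without it, and over all islands 0.022 and 0.044. On centred log2 ratios the members' median was -0.61 (-0.012 over all islands), and 12 members passed, 0 higher (0.610% of all islands) and 12 lower (1.02%), against 1.63% in all. Without J1 it was -0.85, with 1 member higher (2.09%) and 113 lower (6.24%), against 8.34% in all. The standard deviations of the log10 ratios were 0.377 and 0.395 on TT2 and EB5 and 0.430 to 0.525 on the embryo arrays, and their part in the difference between the scales was not tested.

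Members lower in ES cells included Myo10, Pdgfb, Ptk7 and Myo7a. Myo10, a myosin of filopodia (chr15:25643508-25643963), had -0.32 in EB5, 0.29 in TT2 and 1.88 in J1, against 2.23, 2.39, 2.83, 2.53 and 2.46 in embryos. The difference was -1.87 (SE 0.38, limma adjusted p = 0.027), and -2.50 without J1. Pdgfb, a chain of platelet-derived growth factor (chr15:79832097-79832377), had 0.54, 1.39 and 1.94 in EB5, TT2 and J1 against 2.53 to 3.35, a difference of -1.70 (SE 0.27, limma adjusted p = 0.011), and -2.03 without J1. All 3 ES arrays lay below all embryo arrays at both genes.

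Ptk7, a receptor of planar cell polarity, had 2.02, 1.90 and 1.72 in EB5, TT2 and J1 against 2.44 to 3.50 (difference -1.20, SE 0.20, limma adjusted p = 0.011, and -1.12 without J1). Myo7a, a myosin of sensory hair cells, had 1.48, 1.22 and 2.44 against 2.52 to 3.19 (difference -1.19, SE 0.25, limma adjusted p = 0.032, and -1.55 without J1). Both stayed above 0.75 in ES cells. On centred log2 ratios Myo10, Pdgfb and Ptk7 also passed (limma adjusted p = 0.049, 0.027 and 0.028), and Myo7a did not with J1 (0.073) but did without it (0.0049). The lowest member by EB5 and TT2 together was an island of Atp2b2, a plasma membrane calcium pump. This island (chr6:113698581-113698861) had -0.23 in EB5, -0.43 in TT2 and 1.33 in J1 against 1.61 to 2.22 in embryos (difference -1.83, limma adjusted p = 0.018, and -2.39 without J1). The other members in Atp2b2, 1 of them at chr6:113705037-113705544, had 2.31 and 2.15, and 3.01 and 2.63, on EB5 and TT2. Mycn, the proto-oncogene, had 0.20 and 0.27 in EB5 and TT2 but 2.86 in J1 against 2.15 to 2.92 in embryos, and its difference was -1.42 with J1 (limma adjusted p = 0.16) and -2.30 without it (adjusted p = 0.00012). Atp2b2 and Mycn fall outside the rule for named genes and were chosen after their values were seen.

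**Figure D4:**
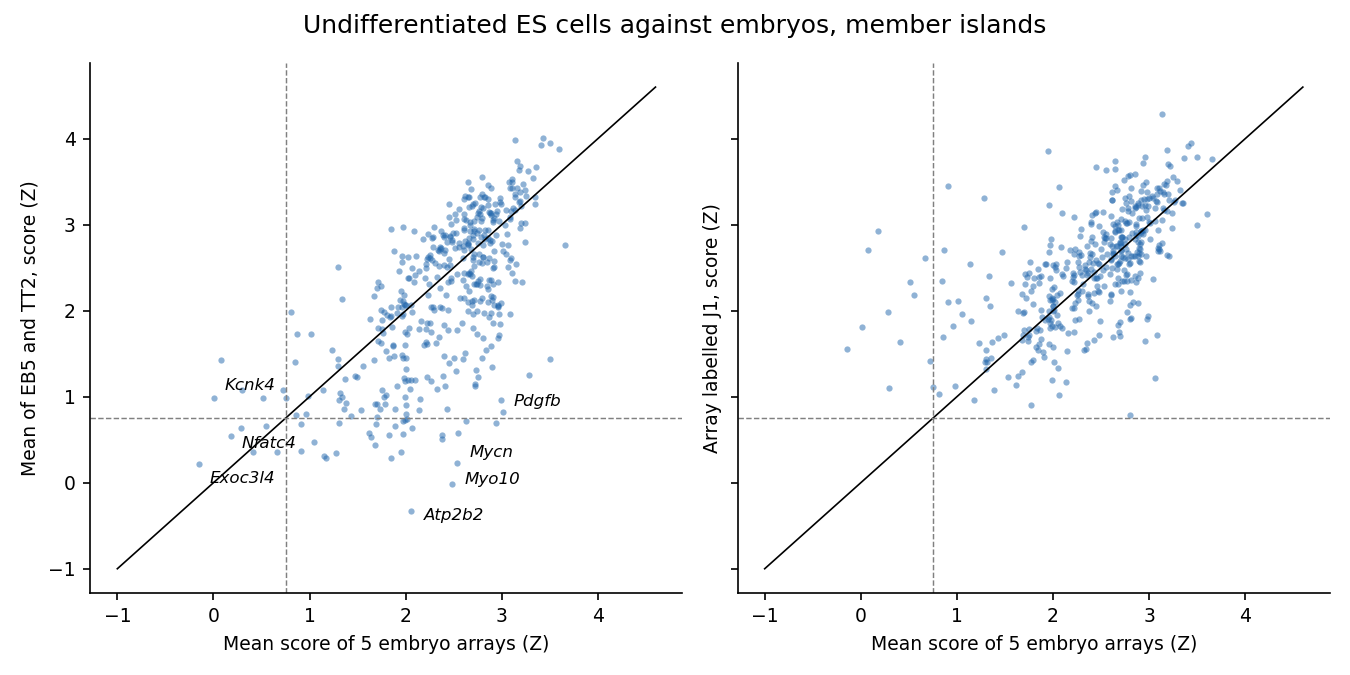
Score (Z units) of each of the 444 members in undifferentiated ES cells (left, mean of EB5 and TT2; right, the array labelled J1) against the mean of the 5 embryo arrays, with the line of equality and dashed lines at 0.75. Myo10, Atp2b2 and Mycn lie far below the line on EB5 and TT2, and on J1 all 444 members lie above 0.75.

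Members higher in ES cells than in embryos included the channel Kcnk4, with 1.22 in EB5, 0.75 in TT2 and 1.81 in J1 against -0.069 to 0.094 in embryos (difference 1.25, SE 0.20, limma adjusted p = 0.011). Wnt6, a secreted Wnt ligand (chr1:74829350-74829687), had 2.45, 2.58 and 2.15 against 1.00, 1.18, 1.34, 1.24 and 1.74 (difference 1.09, SE 0.18, limma adjusted p = 0.011). Helb, a DNA helicase, had 3.39, 3.10 and 3.67 against 2.09 to 2.87 (difference 0.94, SE 0.18, limma adjusted p = 0.023). An island of Zfhx3, a large homeobox transcription factor, had 3.59, 3.41 and 3.65 against 2.36 to 2.90 (difference 0.90, SE 0.15, limma adjusted p = 0.011). The ES and embryo arrays did not overlap at any of these 4 islands. Without J1 the differences were 0.97 at Kcnk4, 1.21 at Wnt6, 0.80 at Helb and 0.85 at Zfhx3, and each passed (limma adjusted p = 0.0025, 0.0024, 0.025 and 0.0081). On centred log2 ratios with J1, 0 of the 4 passed, with limma adjusted p from 0.069 for Kcnk4 to 0.43 for Zfhx3. On those without J1 Kcnk4 passed (adjusted p = 0.046) and the other 3 did not (0.19 to 0.79). After another background correction the difference at Helb was -0.042.

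Batches were examined where they could be. The embryo arrays, the teratoma arrays and TT2 had 88737 probes, whereas EB5 and J1 had 97651. The part of this difference in the comparison was not tested. With the slide as a block, 9 members were higher and 18 lower in ES cells. TT2 and the 8.5 day embryo shared a slide, and there the members' median difference was 0.12, against 0.036 over all islands. In TT2 255 members were higher and 189 lower. Without the 9.5 day embryo 14 of the 444 members passed, without the 10.5 day embryo 18, without the 11.5 day embryo 21 and without EB5 18. Shares over all islands are not given for the fits of this paragraph. Their counts show only how the number of members passing moved.

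Teratomas were methylated at nearly every member. On both arrays 443 of 444 (99.8%) were above 0.75, against 10.2% of all autosomal islands and 99.6% of the 536 islands lower in differentiated ES cells. In limma, 2 members were higher than in embryos (0.757% of all islands) and 0 lower (0.184%), against 0.940% in all, and 50 members had an unadjusted p under 0.05. Evpl, a protein of the cornified envelope of skin (chr11:116083195-116084366), had 2.21 and 2.50 in teratomas against 1.16 to 1.62 in embryos (difference 1.02, SE 0.17, limma adjusted p = 0.022). Snai1 had 1.23 and 1.18 against 0.22 to 0.43 (difference 0.91, SE 0.18, limma adjusted p = 0.041). At both islands the groups did not overlap. With J1 out of the fit, whose spread enters the error, 12 members were higher (2.14% of all islands) and 3 lower (0.617%), against 2.76% in all. With the groups compared alone 20 passed, with the slide as a random block 1, and on log2 ratios 0. For these last fits the shares over all islands are not given, so their counts show only how the number passing moved.

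Over the arrays outside the choice, 381 members (85.8%) were above 0.75 on all 10 embryo, undifferentiated ES and teratoma arrays, against 6.62% of all autosomal islands. On all 34 arrays 333 members were above 0.75.

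Some members that were high in ex vivo β cells were low in the islet cell lines. With 1 array each no test was possible, and the SD of the log10 ratios was 0.535 on Min6, 0.561 on aTC and 0.339 on β cells, which scales the scores. On Min6 51 members were not above 0.75, on aTC 16 and on β cells 10. Below 0 were 17, 3 and 2 members. The share of members above 0.75 was 88.5% on Min6, 96.4% on aTC and 97.7% on β cells. Over all autosomal islands it was 19.6%, 23.2% and 11.9%, and over the 536 islands lower in differentiated ES cells 96.3%, 99.8% and 97.8%. Min6 lay below β cells in 339 members and aTC in 376, with median differences of -0.48 and -0.61, against -0.15 and -0.20 over all islands. The share of all islands below β cells is not given. Among named members, Slc1a3, a glutamate transporter, had -0.68 in Min6 and -0.19 in aTC against 2.20 in β cells. Gas6, a ligand of the TAM receptors, had -1.01 in Min6, 1.10 in aTC and 1.94 in β cells. Nat8l, which makes N-acetylaspartate, had -0.46, 0.58 and 1.40. In whole adult pancreas the mean of Slc1a3 was 2.02, its highest tissue.

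Krt7 and Sall4 were chosen after their values were seen. Krt7, a keratin of simple epithelia, had -0.57 in Min6 and -0.29 in β cells but 2.00 in aTC. Both members in Sall4, a zinc finger factor of pluripotent cells, were low in Min6, with 0.46 and -0.026, against 2.29 and 1.90 in β cells and 2.00 to 2.72 in EB5 and TT2. Of these genes, β cells were low together with Min6 at Krt7 and not at Sall4.

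**Figure D5:**
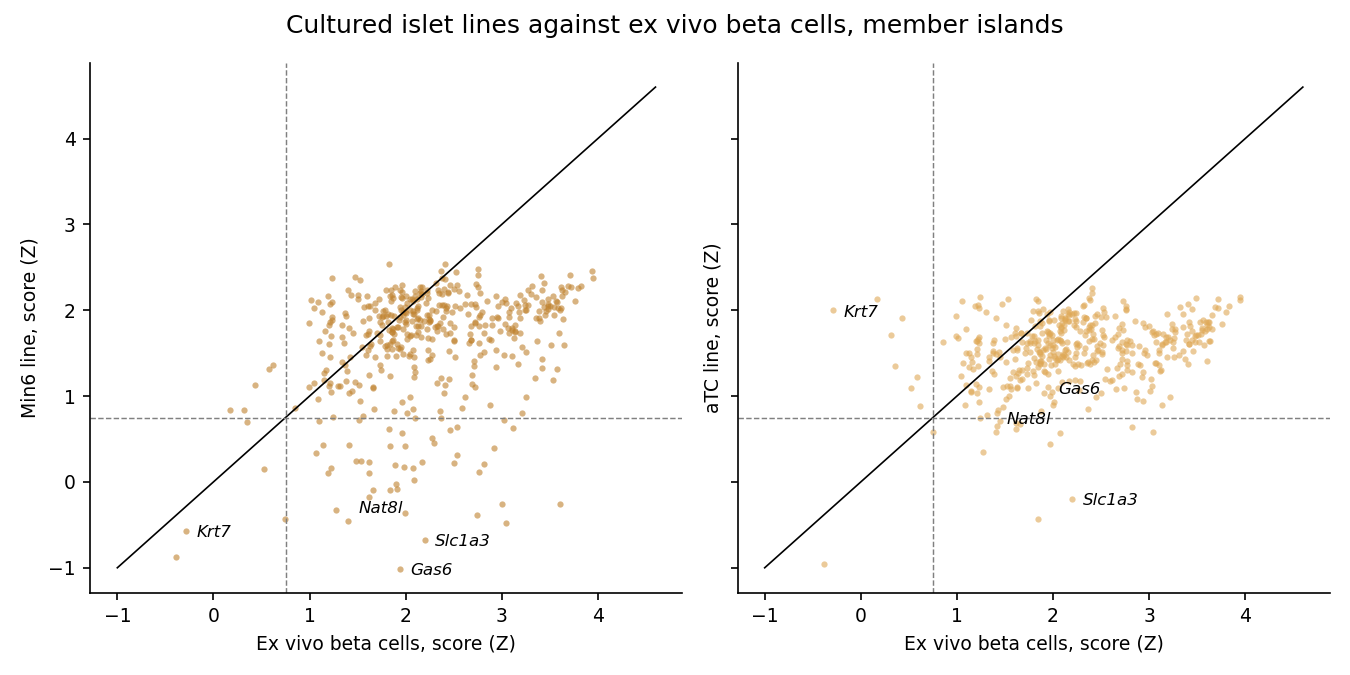
Score (Z units) of the 444 members in Min6 and aTC against ex vivo β cells, 1 array each, with the line of equality and dashed lines at 0.75. Most members lie below the line, 339 in Min6 and 376 in aTC, and Gas6 is at -1.01 in Min6.

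Lists of genes show which classes the members touch. Among germline genes 3 of 29 islands were members (Dazl, Hormad1 and Dmc1), or 10.3% against 3.35% of all autosomal islands. Above 0.75 on all adult arrays were 20 of the 29. Of these 20 only the 3 were members, against 45.3% of all autosomal islands above 0.75 on all adult arrays. Imprinted genes had 5 members of 47 islands: Dlk1, 2 islands of Trappc9, Usp29 and Cdh15. Dlk1, a paternally expressed Notch-like ligand, had 2.60, 2.07 and 2.43 in EB5, TT2 and J1 against 1.51 to 1.80 in embryos (difference 0.66, SE 0.13, limma adjusted p = 0.022, and 0.63 without J1), and the other 4 did not pass with J1 in the fit. The promoter island of Trappc9, a trafficking protein, had 2.96 to 3.78 in embryos and 3.64 to 3.78 in ES cells. Usp29, an imprinted deubiquitinase, had 2.78 to 3.17 in embryos and 2.33 and 2.48 in teratomas, and Cdh15, the muscle cadherin, 1.42 to 2.00 and 1.84 and 1.98. Imprinted control regions carry the mark on a single parental copy, and a score of this kind does not give the share of copies.

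Clustered protocadherins had 3 members of 12 islands, and 7 of the 12 were above 0.75 on all adult arrays. Zinc finger genes had 6 of 218 (2.75%), solute carriers 5 of 219 (2.28%) and ribosomal proteins 1 of 79 (1.27%), namely Rps10 with 2.10 to 2.32 in embryos. Genes of the DNA methylation machinery, the enzymes, readers and erasers of the mark, had 0 of 27. In ES cells against embryos with J1 in the fit, 1 member of these lists passed, Dlk1, which did not pass on centred log2 ratios (limma adjusted p = 0.47). Without J1 the germline gene Dmc1 passed too, with a difference of -0.84 (limma adjusted p = 0.0082). In teratomas against embryos 0 members of these lists passed.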

How the data were processed

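DNA of 34 mouse samples was enriched with an antibody against 5-methylcytidine (mDIP) and hybridised with input DNA to Agilent CpG island arrays of 97651 probes (14 arrays) or 88737 probes. Per the file headers, the deposited log10 ratios are those of bound (Cy5) over input (Cy3) signal after background subtraction and dye normalization in Agilent Feature Extraction. The deposited intensity columns were used for detection and for another background correction. The authors also deposited a table of processed values, used here as a score of unstated scale for an alternative alone. Their score adjusted for melting temperature was not rebuilt. Here each array was centred on its mean and divided by its SD over unflagged probes that are not controls, and islands were scored as the mean over probes. The 492 probes without coordinates were left out. Positions in build mm9 come from the 6 files whose headers name it and were matched by probe (2005 of 2025 member probes). Promoters are RefSeq windows of build GRCm38.p6, linked by gene symbol. Gene names in the files were current for 293 members and updated through synonyms for 73, and 8 kept the name of the file.

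The members, gene lists and tests were chosen with earlier results of these data known. Groups came from the sample labels, and every sample column was matched to a sample. Tests used limma 3.58.1 in R 4.3.3 on island scores, with Benjamini-Hochberg adjustment over all 13614 islands. Other steps used Python 3.11.15, numpy 2.4.6, pandas 2.3.3, scipy 1.17.1 and matplotlib 3.10.9. Genes were named by rule, at most 1 island a gene: the 6 highest and 4 lowest in embryos, up to 4 called each way in ES cells and in teratomas, listed germline, imprinted and methylation machinery genes, the 3 with the widest tissue range, the 3 lowest in Min6 and aTC, those next to each threshold and the 3 with the most probes. Other named genes were chosen after their values were seen. Promoters were meant to be chosen by the promoter call of the array, and were instead chosen by probes at the start. The fits were tested on simulated data with known differences. Alternatives included other background corrections, scales, probe filters, batches as blocks and leaving out each array. The number of arrays limits the precision.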

Additional observations from a re-analysis of the deposited data

Results flagged for a closer look

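Among 41 sets of 5 values checked for an array far from the rest (named genes on the embryo arrays, and the members' mean on the embryo and the differentiated ES arrays), 3 held one, and chance gives about 1 in 20. In each the 8.5 day embryo was the lowest. Its gap to the next array, as a share of the whole range of the 5 arrays, was 0.857 for Nrtn (1.49 against 2.03 to 2.11), 0.946 for Nat8l (1.65 against 1.98 to 1.99) and 0.738 for BC022651 (1.54 against 2.05 to 2.23), where values above 0.71 count as far. The mean over all members was also lowest in that embryo, 2.15 against 2.35 to 2.55, and the part of the array in these values was not tested.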

How the results depend on the processing

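With an array left out, the share of members above 0.75 was 94.5% to 95.9% in embryos and 99.3% to 100% in both teratomas. Neither share passed the set limit under the alternatives run. That limit is a ratio to the main value so wide that shares this high could hardly pass it. The number of members was 153 with the deposited table, 32 with normexp on the median signals (offset 50, chosen after seeing the data), 149 without dim input probes, 131 with at least 5 probes, 220 with a margin of 0.2, 980 with no margin, and 294 (without the retinoic acid array) to 520 with an array left out. The share on a held-out adult array was 93.6% with normexp, and that on all undifferentiated ES arrays 27.5% with the deposited table and 80.6% to 93.0% with an array left out. For ES cells against embryos the members called numbered 3 with normexp, 18 without dim probes, 12 on log2 ratios, 4 with the test named in the methods, 114 on log2 ratios without J1, 71 with the deposited table without J1, and 14 (without the 9.5 day embryo) to 128 (without J1) with an array left out, with 18 and 21 without the 10.5 and 11.5 day embryo. For teratomas they numbered 1 with normexp, 7 without dim probes, 0 on log2 ratios, 0 with all 31 arrays in the fit, 20 with the compared groups alone, 1 with slide as a random block, 15 with J1 out of the fit and 0 to 1 with an array left out. For embryos against adult tissue they numbered 38 with the deposited table, 1 with normexp, 35 without dim probes, 19 on log2 ratios, 42 with the test named in the methods, 29 with slide as a random block, 23 with embryos of 10.5 to 12.5 days and 36 (without the 10.5 day embryo) to 95 (without pancreas replicate 2) with an array left out, with 40 and 42 without the 9.5 and 11.5 day embryo. Settings without J1 that were added, and J1 out of the teratoma fit, were chosen after seeing the data. Of 280 values of named genes, 188 kept their side of the threshold and direction, 88 no longer passed, 3 newly passed and 1 reversed, Helb with -0.042 under normexp. The causes were not tested. The counts of members called in this paragraph stand without shares over all islands and show only how the number passing moved. Slide as a fixed block was not run for teratomas or for adult tissue. No paired analysis was possible because the labels give no replicate numbers to the embryo or undifferentiated ES arrays, so that the groups compared share none.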
